A study of Mus musculus with 15 samples.

Results

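The genes described are 8 genes of the podocyte and its slit diaphragm, Nphs1, Kirrel, Cd2ap, Plce1, Podxl, Ptpro, Synpo and Wt1, taken by their symbols from 3 comparisons of whole kidney RNA between knockout and control mice. All 8 symbols were found in each comparison, among 23393 genes. Podocytes are the epithelial cells that wrap the capillaries of the glomerulus, where blood is filtered. Their interlocking foot processes are bridged by the slit diaphragm, a cell junction built of adhesion proteins of the immunoglobulin superfamily that are tied through adaptors to the actin cytoskeleton. Inherited loss of several of these genes causes leakage of protein into the urine in humans.

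The kidneys came from C57BL/6 mice with the genotype ERRg fl/fl;Sim1-Cre (knockout) and from Cre-negative ERRg fl/fl littermates (control), so that both genotypes carry the floxed alleles of Esrrg, the gene of the nuclear receptor ERRγ. The groups were 3 knockout and 2 control males at 3 weeks of age, 2 knockout and 2 control females at 3 weeks, and 3 knockout and 3 control males at 3 months. Cre follows the expression of Sim1, a transcription factor gene known for neurons of the hypothalamus and also expressed in kidney, and the labels do not say whether it reaches podocytes. The values are the authors' deposited tables of fold changes, which hold no value per kidney, so each error below is the standard error (SE) of those tables.

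The low mean counts move in steps that fitted 4, 4 and 5 libraries in males at 3 weeks, females at 3 weeks and males at 3 months, of which 2, 2 and 2 were read as knockout. The labels list 5, 4 and 6, and which libraries entered the male comparisons cannot be told from the tables. Summed mean counts were 47478811, 33861809 and 18805533 in that order. In the source field the 3-month knockout samples are called female, while their titles and sex field say male. In the authors' deposited table of 3-month males the mean count was 11.9 for Xist, the transcript of the inactive X chromosome, and 1477 for the Y-linked Ddx3y, against 23848 and 0.831 in the authors' deposited table of females. The ratio's direction is not named in the tables. It is read as knockout over control because the tubule transport genes that the series title ties to ERRγ then lie lower in the knockout, and turning it would exchange higher and lower in every value. Esrrg itself had log2 fold changes of 0.82 ± 0.20, 1.04 ± 0.17 and -0.87 ± 0.57 (SE) in the authors' deposited table of each comparison in the same order. At 3 weeks these values are higher in the knockout, against the direction as read, and at 3 months there was no p-value. The labels do not name the floxed exon and the tables hold no values per exon, so the cause was not tested, and every higher or lower below rests on the direction as read. That Cd2ap moved opposite to Podxl and Nphs1 does not depend on it.

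The 8 genes moved in both directions. Podxl was called lower in the knockout in all 3 comparisons and Nphs1 in males at both ages. Cd2ap was called higher in 3-week females and 3-month males, Kirrel and Synpo were called higher at 3 months, and Plce1, Ptpro and Wt1 were called in none of the 3 comparisons. A gene counts as called where the authors' adjusted p was under 0.05. In 3-week males 2 of 8 were called, both lower, and 17.3% of all tested genes were called, 8.52% lower and 8.81% higher. In 3-week females 2 of 8 were called, 1 lower and 1 higher, against 18.7% of all tested genes, 10.4% lower and 8.29% higher. In 3-month males 6 of the 8 had a p-value, and 5 were called, 2 lower and 3 higher, against 57.5% of all tested genes, 27.8% lower and 29.8% higher. Scaled to total counts, none of the 8 was called lower and 2 were called higher in 3-week males. The calls were then 1 lower and 1 higher in 3-week females, and 1 lower and 3 higher in 3-month males. None of the 8 was removed as low, and Wt1 and Plce1 were marked as outliers without a p-value at 3 months. The median log2 fold change of those with a p-value was -0.16 in 3-week males, -0.09 in 3-week females and 0.04 in 3-month males, where all tested genes had medians of -0.01, 0.01 and 0.01. In whole kidney, fewer podocytes and less RNA per podocyte cannot be told apart.

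The levels give the scale of these transcripts. As CPM (counts scaled to a common total) per kilobase of exon, with both genotypes together, Podxl stood highest, at 59.6 in 3-week males, 53.5 in 3-week females and 44.8 in 3-month males. Cd2ap came next at 10.6, 10.4 and 10.4 on that scale, and then Synpo at 7.09, 6.55 and 7.50. Kirrel had 6.41, 5.76 and 3.66 and Nphs1 5.14, 4.37 and 5.72, so that this pair was in the opposite order at 3 months. Ptpro had 4.17, 3.79 and 3.34, Wt1 2.79, 2.22 and 2.61, and Plce1 was lowest at 0.990, 0.892 and 1.23. The spread of these levels over kidneys is not known here, so neighbours in this order cannot be separated. Podxl is also made by endothelial cells, and Cd2ap, Kirrel and Plce1 are made by many cell types, so whole kidney values of these 4 are not levels in podocytes. Whether the RNA of the other 4 comes from podocytes alone was not tested.

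**Figure D1:**
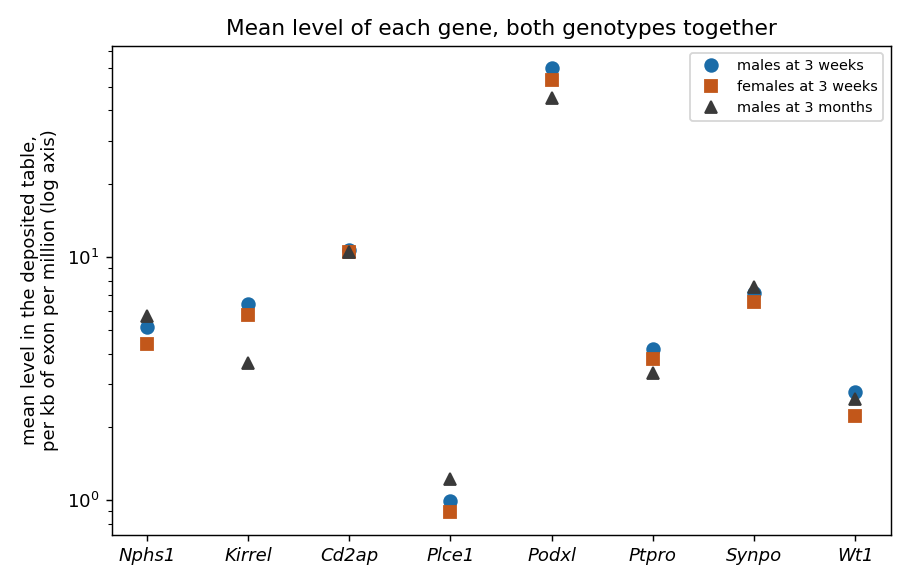
Mean level of the 8 genes in the deposited table of each comparison, both genotypes together (CPM per kilobase of exon, log axis), one symbol per comparison. Podxl lies between 44.8 and 59.6 and Plce1 between 0.892 and 1.23 in the 3 comparisons.

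Promoters of Nphs1, Kirrel, Cd2ap, Plce1 and Ptpro were in the RefSeq table of build GRCm38.p6, each as 250 bases before to 50 after a start, and were searched on both strands. The core of the ERR response element, AAGGTCA, was in none of the 5, and 4.72% of 32851 promoters held it. The longer form TNAAGGTCA was in none of the 5 and in 1.28% of all. GNGTGGGNG, a form of the sequence bound by Wt1, was in 2 of the 5, Nphs1 and Cd2ap, and in 14.3% of all. GCGGGGGCG, the related Egr form, was in none of the 5 and in 2.91% of all. These matches overlap with no other motif searched, and they show only that the letters are in the window. The stretches of 30 bases around them are shown because this pair moved in opposite directions. They lie at chr7:30459821-30459850 on the plus strand and chr17:42876447-42876476 on the minus strand, and the motif ends 219 and 34 bases before the RefSeq start. Exons annotated in GENCODE M21 cover 250 and 241 of the 250 bases before these starts in Nphs1 and Cd2ap. Capitals mark the motif, which in Cd2ap is on the other strand and appears as its reverse complement.
Nphs1: gagtacctgtGAGTGGGTGagagggaggtg
Cd2ap: tccaccccccCTCCCACCCccgcctgccgg

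Nphs1 encodes nephrin, the adhesion protein that spans the slit diaphragm, located at chr7:30458315-30487223 (plus strand; GENCODE M21, build GRCm38). Its log2 fold change in the authors' deposited table was -0.68 ± 0.22 in 3-week males (adjusted p = 0.0133), which is 0.624 times the control level with a 95% interval from 0.466 to 0.837. In 3-week females the authors' deposited table gave -0.49 ± 0.24 (adjusted p = 0.148), and in 3-month males -1.01 ± 0.20 (adjusted p = 1.67e-06), or 0.496 times the control level (0.378 to 0.650). Nephrin RNA was thus called lower in males at both ages and missed the threshold in females. The sexes were not shown to differ (females minus males 0.19 ± 0.32, adjusted p = 1.00), and neither were the ages (3 months minus 3 weeks -0.33 ± 0.29, adjusted p = 0.423). The call in 3-week males was lost with total-count scaling of the fold changes (adjusted p = 0.0861). The antisense gene Nphs1os covers 597 exonic bases of Nphs1, or 9.02%, and a pseudogene a further 183, and neither gene has a row of its own. The labels name a stranded kit but not how strand was treated in counting, so reads of Nphs1 and of these genes cannot be told apart.

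Kirrel encodes Neph1, the partner that binds nephrin in the slit diaphragm, located at chr3:87078593-87174747 (minus strand). It went the other way from nephrin at 3 months, where the authors' deposited table gave 1.28 ± 0.17 (adjusted p = 1.21e-12), or 2.43 times the control level (1.92 to 3.07). At 3 weeks it was not called, with 0.33 ± 0.17 in males (adjusted p = 0.193) and -0.15 ± 0.19 in females (adjusted p = 0.651) in the authors' deposited table. The change was larger at 3 months than at 3 weeks in males, by 0.95 ± 0.24 (adjusted p = 0.000834, normal test on the difference of fold changes with Benjamini-Hochberg adjustment over 12355 genes). By that test 27.7% of all genes differed between the ages. The difference between the sexes at 3 weeks was -0.48 ± 0.25, with an unadjusted p of 0.0616 and an adjusted p of 1.00.

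Cd2ap encodes an adaptor that links nephrin to actin and to endocytosis, located at chr17:42792951-42876665 (minus strand). Its fold change was positive and of similar size in every comparison, and passed the test in 2 of the 3. In the authors' deposited table it had 0.61 ± 0.23 in 3-week males (adjusted p = 0.0509), 0.61 ± 0.13 in 3-week females (adjusted p = 0.000118) and 0.57 ± 0.17 in 3-month males (adjusted p = 0.00258). These are 1.52, 1.52 and 1.48 times the control level. In 3-week males it just missed the threshold, and it passed there under each of the 3 other scalings (adjusted p from 0.00631 to 0.0482). The fold changes differed by 0.00 ± 0.27 between the sexes, with a 95% interval from -0.52 to 0.53, and by -0.04 ± 0.29 between the ages (-0.61 to 0.53).

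Plce1 encodes phospholipase C epsilon, a signalling enzyme whose loss causes early nephrotic syndrome in humans, located at chr19:38481109-38785030 (plus strand). It had 0.28 ± 0.23 in 3-week males (adjusted p = 0.471) and 0.12 ± 0.27 in 3-week females (adjusted p = 0.810) in the authors' deposited table. At 3 months the authors' deposited table gave 1.72 ± 0.41, or 3.30 times the control level, marked as an outlier and without a p-value. With outlier genes put back into the adjustment its adjusted p there was 9.86e-05. That value rests on the normal p of fold change over SE, computed here. It takes no account of what set off the mark, which is not known.

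Podxl encodes podocalyxin, the charged sialomucin that keeps foot processes apart and also coats endothelial cells, located at chr6:31519488-31563981 (minus strand). It fell in all 3 comparisons. The authors' deposited table gave -0.50 ± 0.16 in 3-week males (adjusted p = 0.0184), -0.63 ± 0.12 in 3-week females (adjusted p = 1.90e-06) and -0.76 ± 0.24 in 3-month males (adjusted p = 0.00374). The levels were 0.708, 0.648 and 0.591 times those of controls. In 3-week and 3-month males the call ended with total-count scaling (adjusted p = 0.168 and 0.332) and when fold changes were centred on genes of like mean count (adjusted p = 0.253 and 0.860), while that of females held under both. Of 19 endothelial genes tested, 7 were lower and none higher in 3-week males, and 15 of 19 lower and none higher in 3-week females, which is 36.8% and 78.9% called against 17.3% and 18.7% of all tested genes. In 3-month males 3 of 15 were lower and 5 higher, with a median of 0.21, and their 53.3% called was near the 57.5% of all tested genes. Their part in the Podxl values was not tested.

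Ptpro encodes GLEPP1, a receptor tyrosine phosphatase of the podocyte surface, located at chr6:137252319-137463233 (plus strand). It was on the lower side in each comparison without passing, at -0.29 ± 0.20, -0.36 ± 0.18 and -0.25 ± 0.24 in the authors' deposited table (adjusted p = 0.359, 0.161 and 0.374), and the sign at 3 months turned with total-count scaling (0.25). Combining both sexes at 3 weeks by inverse variance, a step added after seeing the data, gave -0.33 ± 0.13 (adjusted p = 0.0440), where 31.7% of genes were called. That combination called 3 of the 8 lower, Nphs1 at -0.59 ± 0.16, Podxl at -0.58 ± 0.09 and Ptpro, and Cd2ap higher at 0.61 ± 0.12. With total-count scaling it called 2 lower and 1 higher, without Ptpro (adjusted p = 0.330).

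Synpo encodes synaptopodin, an actin-associated protein of foot processes, located at chr18:60593973-60660142 (minus strand). Its fold change had opposite signs at the ages in males. The authors' deposited table gave -0.32 ± 0.17 in 3-week males (adjusted p = 0.199), -0.04 ± 0.19 in 3-week females (adjusted p = 0.918) and 0.32 ± 0.13 in 3-month males (adjusted p = 0.0236). The difference between 3 months and 3 weeks in males was 0.64 ± 0.21 (adjusted p = 0.0133).

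Wt1 encodes the transcription factor that maintains podocyte identity and is known to act on Nphs1 and Podxl, located at chr2:105126529-105173616 (plus strand). Its fold changes were the closest to 0 of the 8 in 3-week and 3-month males. The authors' deposited table gave -0.02 ± 0.21 in 3-week males (adjusted p = 0.969), 0.15 ± 0.19 in 3-week females (adjusted p = 0.643) and, as an outlier without a p-value, -0.06 ± 0.44 at 3 months. The 95% intervals of the ratio ran from 0.738 to 1.31, from 0.861 to 1.43 and from 0.528 to 1.75. The ratio of 0.496 of Nphs1 at 3 months lies inside none of these, but its own interval of 0.378 to 0.650 overlaps the last. A difference between Wt1 and Nphs1 was not tested.

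**Figure D2:**
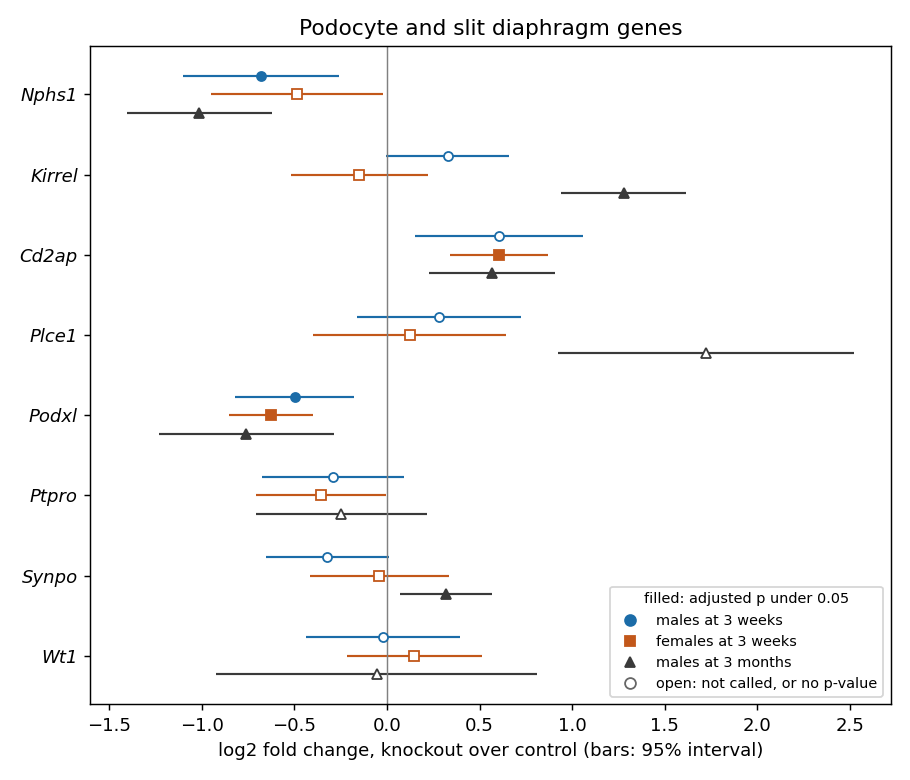
Log2 fold change of the 8 genes, knockout over control, with 95% intervals from the deposited standard errors, in 3 comparisons; filled symbols have an adjusted p under 0.05. Nphs1 and Podxl lie below 0 and Cd2ap above 0 in each comparison, and Kirrel reaches 1.28 in 3-month males.

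No gene of 13737 differed between the sexes at 3 weeks after adjustment (0% called, lowest adjusted p = 0.224), and 237, or 1.73%, had an unadjusted p under 0.05 by the same normal test. That share is smaller than a threshold of 0.05 would give with no difference at all, so the test was conservative here. The lack of calls therefore does not show that the sexes respond alike. No other tool was run on these differences.

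For other genes of the slit diaphragm the share called was near that of all genes at 3 months and below it in females. The list of 17 was chosen with earlier results of these data known. In 3-week males 1 of 17 was lower and 3 higher, in 3-week females none lower and 2 higher, and in 3-month males 3 of 14 lower and 5 higher. That is 23.5%, 11.8% and 57.1% called, against 17.3%, 18.7% and 57.5% of all tested genes. Their medians were 0.12, 0.08 and 0.02 on the log2 scale. Magi2, a scaffold that binds nephrin, was at -1.19 ± 0.21 at 3 months in the authors' deposited table (adjusted p = 5.26e-08) and was not called at 3 weeks (-0.41 ± 0.25 and -0.20 ± 0.24).

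The 5 called higher at 3 months were Tjp1, Nck1, Iqgap1, Fyn and Kirrel3. At 3 months the authors' deposited table gave 0.96 ± 0.18 for Tjp1, the tight junction protein ZO-1 that binds Neph1, 1.14 ± 0.23 for Nck1, the adaptor between nephrin and actin, and 1.02 ± 0.13 for the scaffold Iqgap1 (adjusted p from 1.31e-14 to 2.82e-06). Tjp1 and Nck1 rose more at 3 months than at 3 weeks in males (differences of 0.83 ± 0.26 and 0.96 ± 0.30, adjusted p = 0.00971 and 0.00867). Fyn, a Src family kinase that phosphorylates nephrin, had 0.95 ± 0.20 in the authors' deposited table of 3-month males (adjusted p = 1.10e-05). Fyn, Fat1, a giant cadherin, and Kirrel3, a relative of Neph1, were named after their values were seen. Kirrel3 had 1.52 ± 0.33, 1.21 ± 0.30 and 2.81 ± 0.57 in the authors' deposited table and was called in each comparison, at mean counts of 163, 93.9 and 21.1. Fat1 rose at 3 weeks, by 0.66 ± 0.18 in males and 0.76 ± 0.15 in females in the authors' deposited table, and had no p-value at 3 months. Tjp1, Nck1, Iqgap1 and Fat1 are made by many kidney cells.

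**Figure D3:**
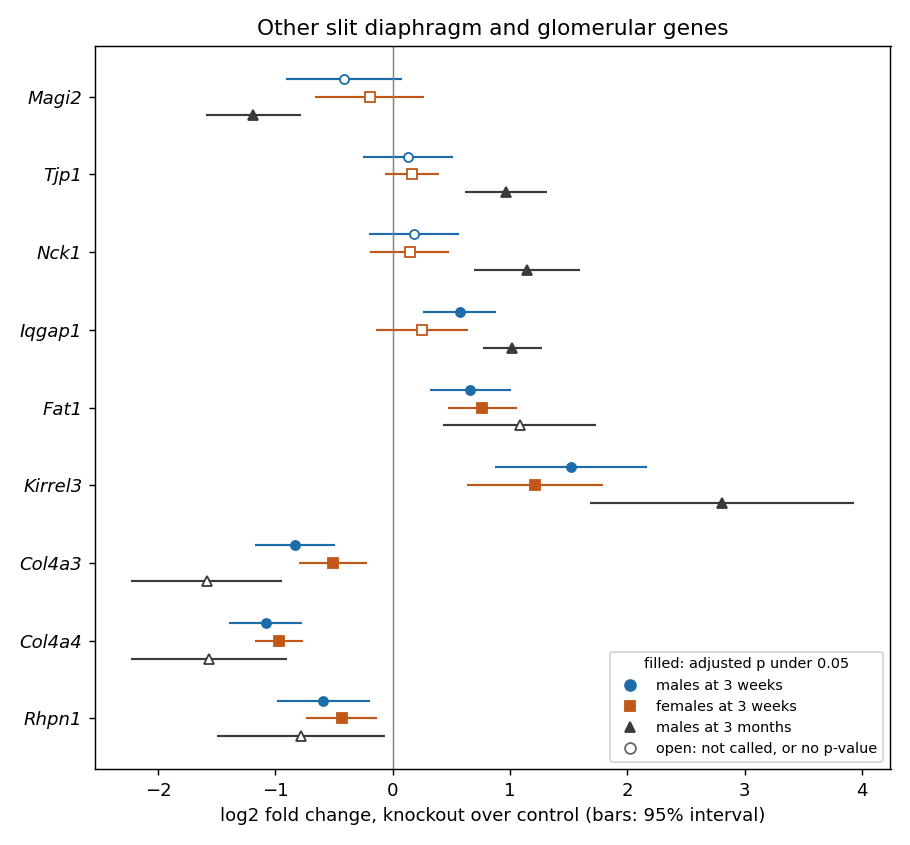
Log2 fold change, knockout over control, of 9 other slit diaphragm and glomerular genes, drawn as for the 8 genes. Magi2, Col4a3, Col4a4 and Rhpn1 lie below 0 and Fat1, Kirrel3, Tjp1, Nck1 and Iqgap1 above 0 in the 3 comparisons.

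The basement membrane beneath the podocytes is built of type IV collagen and laminin chains with linking proteins and proteoglycans. Whole kidney RNA does not separate that membrane from other basement membranes of the kidney. The values below, that of Col4a6 among them, therefore cannot be placed in the glomerulus. Col4a4, a chain of the collagen network that podocytes and some tubule cells make, fell by 1.08 ± 0.16 in males and by 0.97 ± 0.11 in females at 3 weeks in the authors' deposited table (adjusted p = 7.12e-10 and 6.49e-18). Its partner Col4a3, named after its values were seen, had -0.84 ± 0.17 and -0.51 ± 0.15 there, and both lacked a p-value at 3 months (-1.57 ± 0.34 for Col4a4 and -1.58 ± 0.33 for Col4a3 in the authors' deposited table). Col4a5, another listed chain also named after its values were seen, had -0.42 in 3-week males and -0.31 in 3-week females. In 3-month males it had 0.22. Its difference between 3 months and 3 weeks in males was 0.64 ± 0.22 (adjusted p = 0.0189, normal test on the difference). Lamc1, the laminin gamma 1 chain, rose in all 3, at 0.43 ± 0.15, 0.35 ± 0.12 and 1.00 ± 0.15 in the authors' deposited table. Col4a6 rose by 3.20 ± 0.22 at 3 months in the authors' deposited table, and Tinagl1 was called lower in females (-0.96 ± 0.25) and higher at 3 months (1.21 ± 0.19). Of the 15 listed basement membrane genes, which also hold Agrn, Hspg2, Nid1, Nid2 and Tinagl1, 2 were lower and 2 higher in 3-week males, 4 of 13 tested lower and 4 higher in 3-week females, and 8 of 10 higher and none lower at 3 months. These are 26.7%, 61.5% and 80.0% called, against 17.3%, 18.7% and 57.5% of all tested genes.

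Of 25 genes for the podocyte cytoskeleton and its adhesion, 1 of 23 tested was lower and 3 higher in 3-week males, 2 of 25 lower and 4 higher in 3-week females, and 2 of 21 lower and 13 higher in 3-month males. These are 17.4%, 24.0% and 71.4% called, and the first is near the 17.3% of all tested genes, where females had 18.7% and 3-month males 57.5%. The authors' deposited table gave 2.15 ± 0.32 for Inf2, an actin-regulating formin, 0.82 ± 0.11 for the integrin Itgb1 and 2.95 ± 0.22 for Vim, an intermediate filament of podocytes, fibroblasts and injured tubules, at 3 months. Clic5, which links membrane to actin in foot processes, was the other way at -1.29 ± 0.17 in that table, the authors' deposited table of 3-month males. Of the regulators, Klf15 was lower in 3-week females (-0.50 ± 0.14) and 3-month males (-1.80 ± 0.39) in the authors' deposited table, and Foxc1, Hes1 and Foxd1 were higher at 3 months (1.43 ± 0.25, 1.81 ± 0.33 and 1.59 ± 0.40). Among 17 regulators none was higher and 2 of 15 lower in 3-week males, none higher and 4 of 16 lower in 3-week females, and 4 higher and 5 lower of 13 at 3 months. These are 13.3%, 25.0% and 69.2% called, the first below the share of all genes.

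Secreted and surface genes of podocytes had 3 lower and 3 higher of 22 in 3-week males, 2 lower and 4 higher of 18 in 3-week females, and 5 lower and 6 higher of 17 at 3 months, which is 27.3%, 33.3% and 64.7% called. Rhpn1, a rhophilin of podocytes named after its values were seen, had -0.59 ± 0.20 and -0.44 ± 0.15 at 3 weeks in males and females in the authors' deposited table (adjusted p = 0.0232 and 0.0304). The glypican Gpc3 rose in each comparison, with 0.61 ± 0.15, 0.72 ± 0.11 and 2.38 ± 0.27 in the authors' deposited table, and at 3 months Efnb2 and Ptgds rose and Htra1 fell (2.58 ± 0.19, 3.73 ± 0.40 and -1.42 ± 0.16). Over these 5 lists together 21.7%, 29.2% and 68.0% of the tested genes were called, beside the shares of all genes of 17.3%, 18.7% and 57.5%. By direction 11 of 92 were higher and 9 lower in 3-week males, 14 and 12 of 89 in 3-week females, and 36 and 15 of 75 in 3-month males, and with total-count scaling these became 23 and 2, 21 and 5, and 49 and 6.

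Counts for markers of other cells are read against the 17.3%, 18.7% and 57.5% of all tested genes called in 3-week males, 3-week females and 3-month males. In whole kidney these counts do not show which cell type made a transcript, in the parietal epithelial list as in the others. Parietal epithelial genes, of the capsule around the glomerulus, were higher in 5 of 8, 5 of 9 and 6 of 7 tested cases in 3-week males, 3-week females and 3-month males, and lower in none (62.5%, 55.6% and 85.7% called), among them Akap12 at 3.01 ± 0.18 and Alcam at 1.72 ± 0.13 at 3 months in the authors' deposited table. Mesangial and mural cell genes had 2 lower and 2 higher of 11, 2 lower and 1 higher of 10, and 2 lower and 11 higher of 13, so that 4 of 11, 3 of 10 and 13 of 13 were called. Genes described in injured podocytes, most of them also made by tubule or immune cells, were higher in 5 of 10, 5 of 9 and 7 of 9 and lower in 1 each time (60.0%, 66.7% and 88.9% called), with Ccl2 at 2.30 ± 0.41, 2.88 ± 0.35 and 5.69 ± 0.39 in the authors' deposited table. Of the tubule segment markers 14 of 18, 8 of 14 and 4 of 4 tested were lower and none higher, or 77.8%, 57.1% and 100% called. Their direction is no separate result, because the ratio's direction was read from tubule transport genes, which this list holds. Of the 20 listed, 2, 6 and 16 were marked as outliers without a p-value, so the last share rests on 4 genes. The part of these cell types in the values of the 8 genes was not tested.

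**Figure D4:**
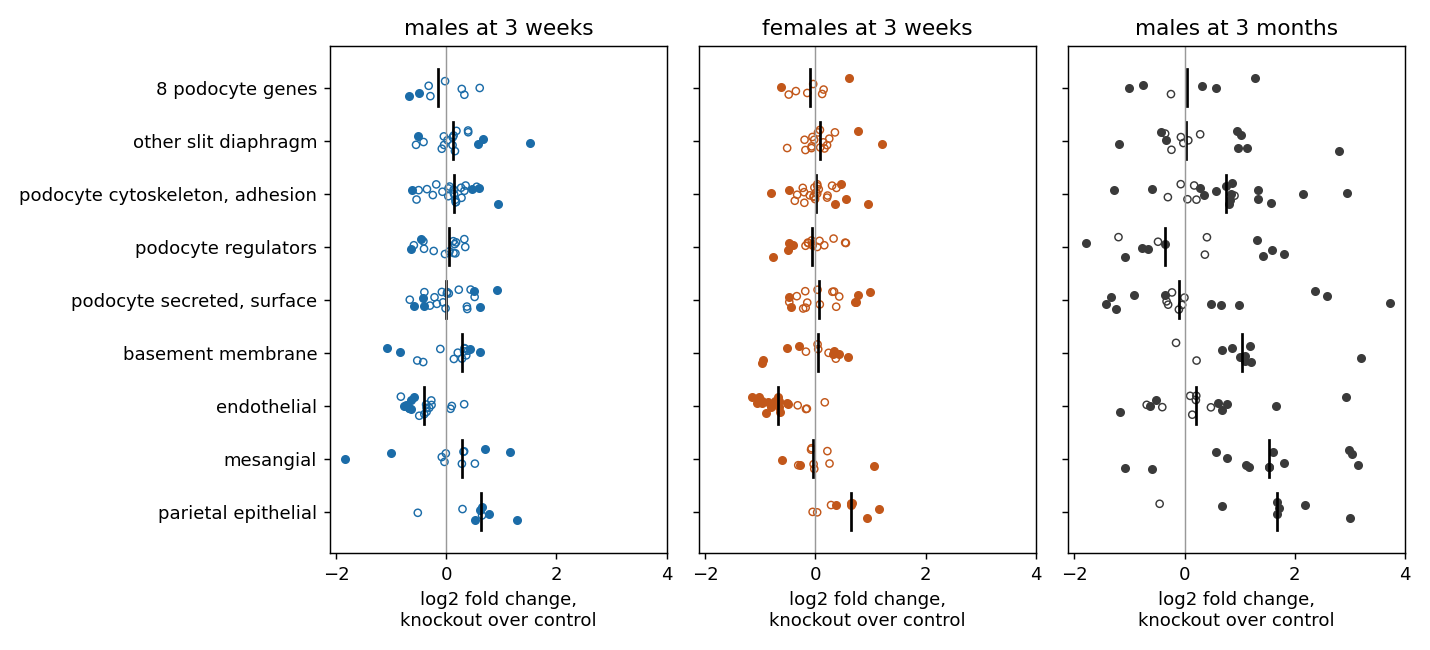
Log2 fold change, knockout over control, of each tested gene of 9 lists in the 3 comparisons (filled: adjusted p under 0.05; black line: median). The medians of the endothelial list are -0.40, -0.67 and 0.21 and those of the parietal epithelial list 0.63, 0.64 and 1.68 in 3-week males, 3-week females and 3-month males.

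The genes closest to Nphs1 over the 3 log2 fold changes, by Euclidean distance among 11241 genes with a mean count of at least 100 in each table, were Gstk1 at a distance of 0.06, Hspa12a at 0.08, Napsa at 0.09, Morn2 at 0.10 and Slc46a1 at 0.11. The distance rests on 3 values per gene and describes likeness of fold change alone.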

How the data were processed

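Libraries of polyadenylated RNA from 15 kidney samples in 6 groups were made with a stranded kit, per the labels' protocols. The submitters' processing notes name STAR, HOMER, DESeq2 and the build mm10, without versions. The authors' 3 deposited tables have the columns of DESeq2: mean normalized count (the signal), log2 fold change, SE, raw p-value and its adjusted form. Per the values, 100% of the deposited p-values equal the normal p of fold change over SE within 1%. The sources used here do not say whether fold changes were moderated towards 0; one alternative undoes it with the largest SE of each table (0.44, 0.42 and 1.10) as the prior. Tables were normalized separately. Genes with a mean count under 10 had no adjusted p.

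The 27 symbols turned into dates were left out. Computed here were 95% intervals (1.96 SE) and levels per kilobase of merged GENCODE M21 exons. Also computed were differences between tables (normal test, Benjamini-Hochberg over all shared genes) and motif matches. Python 3.11.15, pandas 2.3.3 and SciPy 1.17.1 were used. The tests were tested on simulated fold changes with normal noise of the deposited SE. Such data cannot show whether those SE, or moderation of the fold changes, mislead the tests. Members and lists were chosen with earlier results of these data known. Named were all 8 genes, up to 4 per list with the smallest adjusted p, genes called in opposite directions between tables, and the 5 nearest to Nphs1; not all are printed. Deposited p-values measure the spread between libraries, which the labels call separate samples. Some genes of the lists are counted but not reported here by name.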

Additional observations from a re-analysis of the deposited data

Results flagged for a closer look

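Among the 6 genes with a p-value at both ages, 2 had fold changes that differed between 3 months and 3 weeks in males by the normal test on their difference. Kirrel differed by 0.95 and Synpo by 0.64 on the log2 scale, both higher at 3 months, where 27.7% of all genes differed. With the moderation of fold changes undone, an alternative added after seeing the data, the differences remained called. No other comparison of the 8 genes was singled out, and values per kidney, needed to look for single kidneys far from the rest, were not analysed here.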

How the results depend on the processing

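For total-count scaling, group totals were rebuilt from the mean counts, the fold changes and the library numbers read from the count steps. Total-count scaling added 0.18, 0.15 and 0.49 to every log2 fold change in 3-week males, 3-week females and 3-month males. With it 75.2%, 74.0% and 84.0% of all calls were higher in the knockout, against 50.8%, 44.2% and 51.7%. Such scaling did not use any single library. Total-count scaling turned the sign of Wt1 in 3-week males (0.16), of Kirrel and Synpo in 3-week females (0.0015 and 0.11) and of Ptpro in 3-month males (0.25). With it the 2 calls in 3-week males were Kirrel and Cd2ap, both higher. At an adjusted p under 0.01 the calls fell to 0 of the 8 in 3-week males, to 12 and 16 of the other podocyte and glomerular genes in 3-week males and females (20 and 26 before), and to 1 for the difference between ages (2 before). Of the 59 recomputed counts the other 55 stayed within 1.5 times. Differences that turned were not called: Cd2ap between sexes (-0.027 with total-count scaling, -0.013 centred on the median, -0.0074 centred on genes of like mean, -0.16 with moderation undone), and between ages Cd2ap (0.28 with total-count scaling and 0.29 centred on genes of like mean), Podxl (0.056 and 0.23 in that order) and Ptpro (-0.024 centred on genes of like mean). The causes were not tested. No paired analysis was possible because the tables hold no value per library and the labels share no numbers across groups; no kidney could be left out for the same reason.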
